A study of Homo sapiens with 12 samples.

Results

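The genes described here make cholesterol and fatty acids or control their synthesis. The list holds 33 genes that were chosen by function, with earlier results of these data known. Of these, 32 were measured among the 15601 genes of the deposited table over all libraries. CYP51A1 has no value in that table and enters only the promoter counts. The genes were followed in SNU449 cells, a human hepatocellular carcinoma line with mesenchymal traits, with or without the receptor tyrosine kinase Axl and with or without resistance to the multikinase inhibitor regorafenib (Rego). SNU449-ctrl are the unedited cells without resistance, SNU449-Rego are the unedited cells adapted to Rego, SNU449-Axl-KO-ctrl are cells in which AXL was disrupted by CRISPR/Cas9, and SNU449-Axl-KO-Rego are such cells adapted to Rego. Adaptation started at 50% of the IC50 and was raised in steps to 2 times the IC50, and the control cells are labelled naive. The growth protocol, which has the same text for every sample, describes Rego treatment after each splitting and was read as meant for the resistant cells. Each group has 3 libraries of mRNA 3′ ends, and the libraries are technical triplicates of 1 cell population. A p-value therefore covers only the spread between libraries, and a difference between groups cannot be told apart from a difference between the populations. Whether the Axl-KO cells come from 1 clone is not given in the sources used here.

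Cholesterol is built from acetyl-CoA through mevalonate and isoprenoid units to squalene, which is closed to lanosterol and then trimmed to cholesterol. Fatty acids are built from the same acetyl-CoA, which ACLY cuts from citrate in the cytosol, and are then elongated and desaturated. Both branches are under the transcription factors SREBP1 and SREBP2, which SCAP carries from the endoplasmic reticulum for activation when sterols are low and which INSIG proteins hold back when sterols are plentiful, and hepatocytes are a main site of both syntheses in the body.

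The value of a gene in a library is the authors' variance-stabilized level, raised back from the log2 scale, with the effect of the preparation date removed. It is a score and not a read count, and it understates the change of weakly expressed genes. Levels below are these values or their log2 after adding 1. Differences are differences of group means on that log2 scale with their standard error (SE), and a gene was called when limma gave it an adjusted p (Benjamini-Hochberg, all genes of the table) under 0.05. The depth per library is unknown. Bulk RNA of this kind does not tell a smaller share of cells with a transcript apart from less of it per cell.

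AXL (ENSG00000167601.12, GRCh38 chromosome 19, 41219223 to 41261766) followed the labels. Its values were 727, 941 and 715 in SNU449-ctrl, 1237, 815 and 1271 in SNU449-Rego, 35, 53 and 33 in SNU449-Axl-KO-ctrl and 50, 38 and 52 in SNU449-Axl-KO-Rego. Every Axl-KO library lay far below every unedited library. The difference with Axl loss was -4.29 (SE 0.24) in control cells and -4.52 (SE 0.24) in resistant cells. Of the markers of hepatocytes, ALB, APOB, SERPINA1, TTR, TF, HNF4A and CYP3A4 were not listed in the table, and APOA1 and AFP had authors' mean normalized counts of 1.14 and 4.26. FGB, a fibrinogen chain, stood at 104. Of the epithelial markers, CDH1, EPCAM and KRT19 were not listed, while KRT8 had a mean normalized count of 267 and KRT18 of 1090. The mesenchymal VIM had 18900, FN1 1600, SPARC 1110, CDH2 417 and ZEB1 158. PTPRC of leukocytes stood at 1.12, CD68 at 6.19, and the endothelial PECAM1, VWF and CDH5 were not listed.

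Some markers moved with the groups. FGB rose by 2.49 (SE 0.38) with Rego resistance in SNU449-Axl-KO and by 3.44 (SE 0.38) with Axl loss in resistant cells, and its interaction was -2.38 (SE 0.54), which was not called without SNU449-Axl-KO-Rego replicate 2, at -1.85. KRT8 rose with Axl loss by 0.79 (SE 0.22) in control cells and by 1.58 (SE 0.22) in resistant cells, and the first of these calls was lost without any of 5 libraries, SNU449-ctrl replicates 1 and 2 and those of SNU449-Axl-KO-ctrl, at 0.61 to 0.85. FN1 was called in all 5 comparisons, as given in the closing part, and AFP rose by 0.67 (SE 0.18) with Axl loss in control cells, a call lost without any of the 6 libraries of this pair of groups, at 0.60 to 0.76. The part of these shifts in the differences of the members was not tested.

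Few members passed the test in any comparison. With Rego resistance in SNU449, 2 of the 32 members were called, both lower, while 7.81% of all genes were called, 4.31% higher and 3.5% lower. In SNU449-Axl-KO cells, 1 member rose with Rego resistance, against 4.35% of all genes called, 2.54% higher and 1.81% lower. With Axl loss in control cells, 3 members were called, 2 lower and 1 higher, against 7.45% of all genes, 4.03% higher and 3.43% lower. In resistant cells 1 member was higher with Axl loss, against 4.37% of all genes called, 2.44% higher and 1.93% lower. The difference between the Rego differences of both backgrounds, tested as an interaction, was called for 3 members, all lower, against 5.87% of all genes, 2.95% higher and 2.92% lower. At an unadjusted p under 0.05 there were 6, 4, 11, 4 and 6 members in this order, or 18.8%, 12.5%, 34.4%, 12.5% and 18.8% of the 32, against 21.3%, 18.6%, 21.5%, 18.2% and 19.4% of all genes.

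The median over the list was set beside that over all genes, without a test of the list. The median difference with Rego resistance was -0.18 over the members in SNU449 and 0.06 in SNU449-Axl-KO, and with Axl loss it was -0.32 in control cells and -0.02 in resistant cells. For the interaction the median was -0.26. Over all genes the medians lay between -0.01 and 0.01 in these comparisons. The members' medians depended on single libraries. With Rego resistance in SNU449 the median was -0.36 without SNU449-Rego replicate 2 and -0.06 without SNU449-Rego replicate 3, and in SNU449-Axl-KO it was 0.05 and 0.18 without SNU449-Axl-KO-ctrl replicates 2 and 3. With Axl loss it was -0.42 and -0.25 in control cells without SNU449-ctrl replicates 2 and 1, and -0.15 and 0.09 in resistant cells without SNU449-Rego replicates 3 and 2. The interaction ranged from -0.42 without SNU449-Rego replicate 2 to -0.19 without SNU449-ctrl replicate 1. Values below 0 were found for 25 of 32 members with Rego resistance in SNU449, for 24 with Axl loss in control cells and for 28 in the interaction, while 50.1%, 49.3% and 51.1% of all genes were below 0. In SNU449-Axl-KO cells 14 members were below 0 with Rego resistance, and among resistant cells 16 were below 0 with Axl loss. With 1 library left out, these counts ran from 22 to 30, 10 to 14, 22 to 28 and 10 to 22 in the order Rego resistance in SNU449 and in SNU449-Axl-KO and Axl loss in control and in resistant cells, and from 22 to 28 in the interaction. Both Rego comparisons share their libraries with the Axl comparisons, so that SNU449-ctrl enters the first and the third as the reference. When each library was centred on its spike-in RNAs instead, the median of all genes moved to 0.05, 0.14, 0.21 and 0.31 in the comparisons in this order and to -0.10 in the interaction, and the members below 0 became 25, 6, 22, 3 and 29. This centring adds 1 constant per library to every gene, so it cannot change the distance between the members and all genes and is no check of it.

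**Figure D1:**
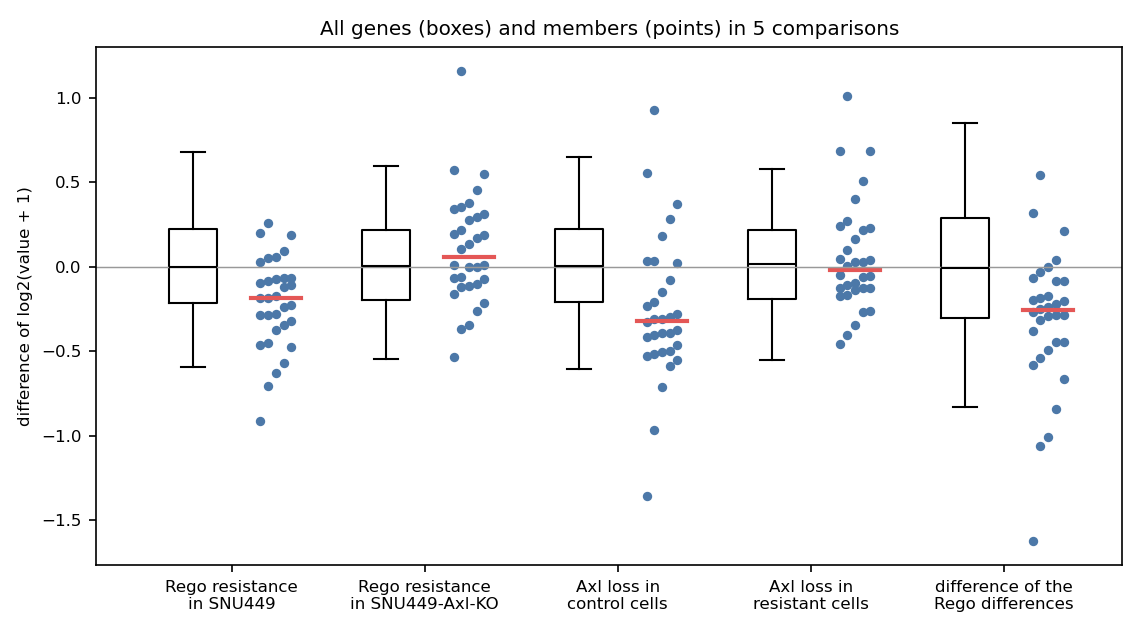
Differences of log2(value + 1) in 5 comparisons, for all 15601 genes as boxes (quartiles and median, whiskers from the 5th to the 95th percentile) and for the 32 members as points with their median as a red line. The red line lies at -0.18, 0.06, -0.32, -0.02 and -0.26 from left to right, and most members lie inside the whiskers.

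**Figure D2:**
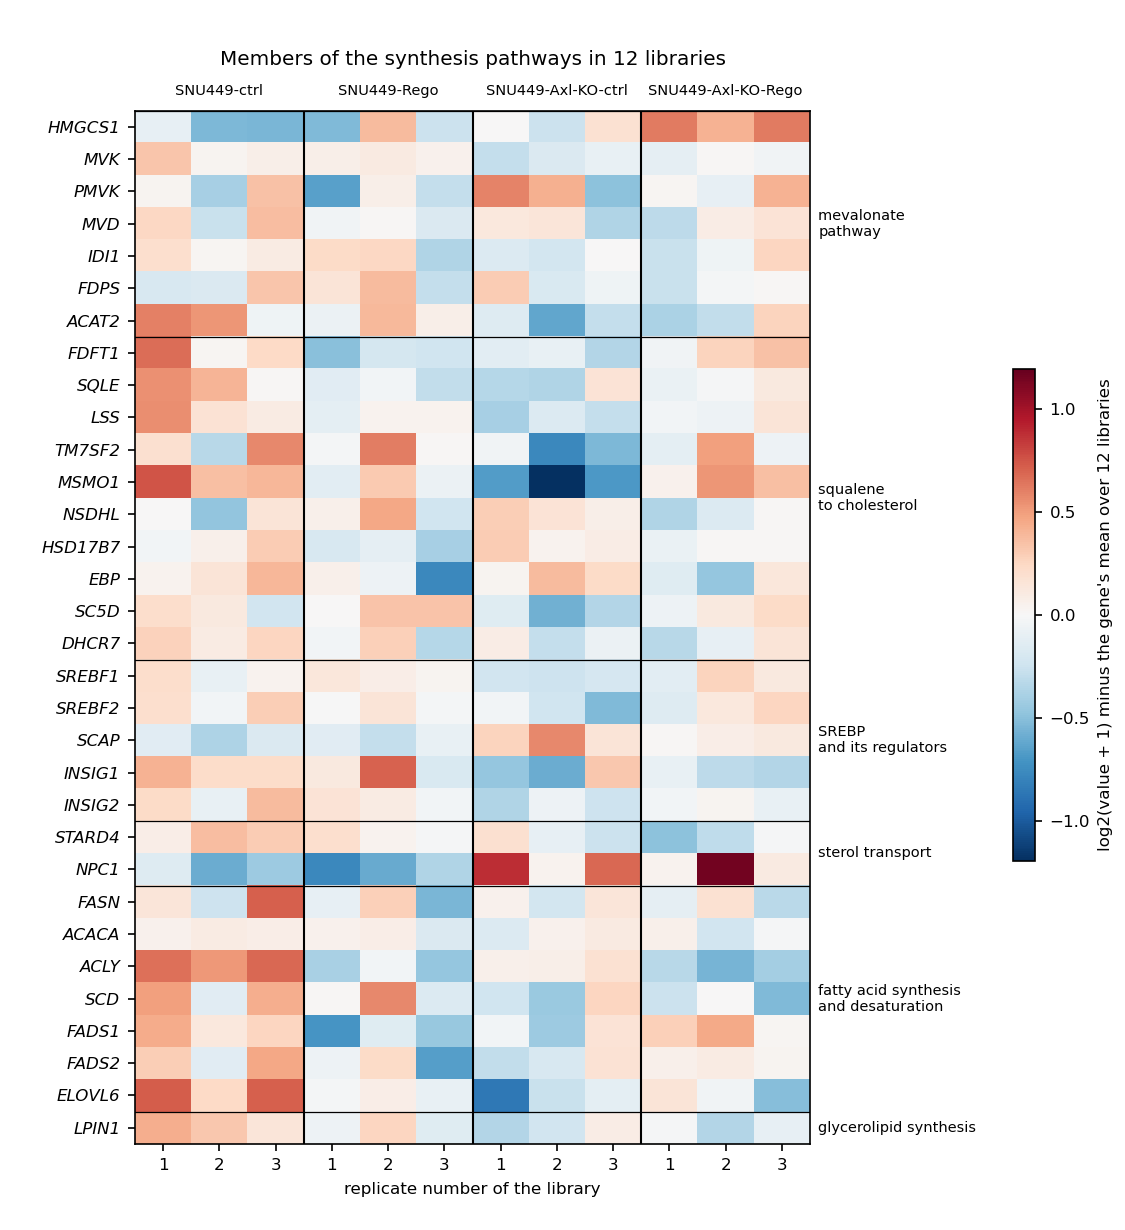
Level of each of the 32 members in each of the 12 libraries, as log2(value + 1) minus the mean of that gene over the 12 libraries, with members ordered by role. MSMO1 is lowest in the SNU449-Axl-KO-ctrl libraries, ACLY is highest in the SNU449-ctrl libraries, and NPC1 is high in Axl-KO libraries.

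None of the 5 genes that control the pathway was called by limma in any comparison, and at an unadjusted p under 0.05 there was 1, SCAP with Axl loss in control cells, where 21.5% of all genes had such a p. SREBF1 (ENSG00000072310.18, chromosome 17, 17810399 to 17837002), which encodes SREBP1, had values of 220, 178 and 196 in SNU449-ctrl, 209, 200 and 194 in SNU449-Rego, 162, 160 and 165 in SNU449-Axl-KO-ctrl and 174, 229 and 206 in SNU449-Axl-KO-Rego. The SNU449-Axl-KO-ctrl libraries were the lowest of all, and the remaining groups overlapped. The difference with Axl loss in control cells was -0.28 (SE 0.18, limma with Benjamini-Hochberg adjusted p = 0.408).

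SREBF2 (ENSG00000198911.12, chromosome 22, 41833079 to 41907307), which encodes SREBP2, the form that acts mainly on cholesterol genes, had values of 100, 85 and 107 in SNU449-ctrl, 87, 97 and 86 in SNU449-Rego, 85, 74 and 60 in SNU449-Axl-KO-ctrl and 78, 95 and 104 in SNU449-Axl-KO-Rego. SNU449-Axl-KO-ctrl held the lowest libraries but overlapped with SNU449-Axl-KO-Rego and touched SNU449-ctrl. The difference with Axl loss in control cells was -0.42 (SE 0.20, limma, Benjamini-Hochberg adjusted p = 0.237).

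INSIG1 (ENSG00000186480.13, chromosome 7, 155297776 to 155310235) retains SCAP in the endoplasmic reticulum and is itself a target of SREBP. Its values were 152, 132 and 132 in SNU449-ctrl, 123, 185 and 100 in SNU449-Rego, 82, 75 and 142 in SNU449-Axl-KO-ctrl and 107, 91 and 89 in SNU449-Axl-KO-Rego. A single library of SNU449-Axl-KO-ctrl, at 142, stood with the unedited control cells. The spread was wide within SNU449-Rego and SNU449-Axl-KO-ctrl and narrower within the other groups. The difference with Axl loss was -0.53 (SE 0.25) in control cells and -0.46 (SE 0.25) in resistant cells. SCAP, the escort of SREBP, had the only positive difference with Axl loss in control cells among these 5 genes, 0.55 (SE 0.18, limma with Benjamini-Hochberg adjusted p = 0.0763), and INSIG2 had -0.39.

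The 7 genes from acetyl-CoA to farnesyl diphosphate had no call from limma in any comparison. At an unadjusted p under 0.05 there was 1 gene each with Rego resistance in SNU449-Axl-KO and with Axl loss in control and in resistant cells, where 18.6%, 21.5% and 18.2% of all genes had such a p. HMGCS1 (ENSG00000112972.15, chromosome 5, 43287470 to 43313512), which makes HMG-CoA, had values of 217, 159 and 158 in SNU449-ctrl, 160, 302 and 194 in SNU449-Rego, 233, 194 and 263 in SNU449-Axl-KO-ctrl and 356, 309 and 357 in SNU449-Axl-KO-Rego. All SNU449-Axl-KO-Rego libraries lay above the libraries of the other groups. The difference with Axl loss in resistant cells was 0.69 (SE 0.23, limma with Benjamini-Hochberg adjusted p = 0.108) and that with Rego resistance in SNU449-Axl-KO cells was 0.57 (SE 0.23, adjusted p = 0.18 from the same fit). ACAT2, which joins acetyl-CoA units at the start of the pathway, had -0.71 (SE 0.23, limma with Benjamini-Hochberg adjusted p = 0.0738) with Axl loss in control cells. The group means of MVK, PMVK, MVD, IDI1 and FDPS, the enzymes from mevalonate to farnesyl diphosphate, spanned 0.33, 0.46, 0.19, 0.23 and 0.17 on the log2 scale. The median of the 7 genes was -0.07 with Rego resistance in SNU449 and -0.15 with Axl loss in control cells.

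The steps from squalene to cholesterol held the largest difference among the members. MSMO1 (ENSG00000052802.13, chromosome 4, 165327667 to 165343164) encodes the methylsterol monooxygenase that takes part in the removal of methyl groups from the sterol ring. Its values were 211, 160 and 165 in SNU449-ctrl, 114, 155 and 119 in SNU449-Rego, 78, 54 and 77 in SNU449-Axl-KO-ctrl and 129, 180 and 160 in SNU449-Axl-KO-Rego. The SNU449-Axl-KO-ctrl libraries were lower than all others, while the SNU449-Axl-KO-Rego libraries reached the range of SNU449-ctrl. MSMO1 fell with Axl loss in control cells, with a difference of -1.35 (SE 0.22, limma with Benjamini-Hochberg adjusted p = 0.000834), and rose with Rego resistance in SNU449-Axl-KO cells, with a difference of 1.16 (SE 0.22, adjusted p = 0.00448). In SNU449 its difference with Rego resistance was -0.47 (SE 0.22, adjusted p = 0.227 from the same limma fit). The Rego differences of both backgrounds differed by -1.63 (SE 0.31, limma interaction with Benjamini-Hochberg adjusted p = 0.00382). The rise in SNU449-Axl-KO cells was no longer called without SNU449-Axl-KO-ctrl replicate 2, at 0.93, or without SNU449-Axl-KO-Rego replicate 2, at 1.02.

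Group means of normalized counts, solved from the authors' means of the tables for each pair of groups and of all libraries, gave the same order for MSMO1, at 157 in SNU449-ctrl, 96.4 in SNU449-Rego, 49.6 in SNU449-Axl-KO-ctrl and 150.5 in SNU449-Axl-KO-Rego. These counts carry no error and no test. On this count scale the median of all genes was itself shifted, with a difference of -0.16 with Rego resistance in SNU449, 0.06 in SNU449-Axl-KO, 0.15 with Axl loss in control cells and 0.37 in resistant cells. Relative to that shift the log2 difference of MSMO1 was -1.81 with Axl loss in control cells and 1.54 with Rego resistance in SNU449-Axl-KO cells, larger than on the stabilized scale.

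FDFT1 (ENSG00000079459.13, chromosome 8, 11795573 to 11839304), squalene synthase, commits farnesyl diphosphate to sterols. Its values were 632, 403 and 469 in SNU449-ctrl, 280, 343 and 336 in SNU449-Rego, 363, 374 and 311 in SNU449-Axl-KO-ctrl and 385, 478 and 504 in SNU449-Axl-KO-Rego. The control libraries were the higher ones in unedited cells and the lower ones in Axl-KO cells, with no overlap between control and resistant libraries in either background. The Rego difference was -0.63 (SE 0.20, limma with Benjamini-Hochberg adjusted p = 0.0701) in SNU449 and 0.38 (SE 0.20, adjusted p = 0.345) in SNU449-Axl-KO. These differed by -1.01 (SE 0.29, limma interaction with Benjamini-Hochberg adjusted p = 0.0468). This call was close to the threshold and was lost when any of 11 of the 12 libraries was left out, SNU449-ctrl replicate 2 being the exception, with differences from -1.16 to -0.77 and adjusted p from 0.0517 to 0.145 in the same limma fit.

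SQLE, the squalene epoxidase, and LSS, which closes the ring to lanosterol, had no call. Their group means had the order of MSMO1, with SNU449-Axl-KO-ctrl lowest, whereas SNU449-Rego was lowest for FDFT1. For SQLE the means of SNU449-Rego and SNU449-Axl-KO-ctrl lay close together, at 7.70 and 7.67. Their interaction values were -0.66 (SE 0.29) and -0.58 (SE 0.27), and their differences with Axl loss in control cells were -0.50 (SE 0.20) and -0.55 (SE 0.19). TM7SF2 had -0.59 (SE 0.27) with Axl loss in control cells and 0.55 (SE 0.27) with Rego resistance in SNU449-Axl-KO cells. NSDHL, HSD17B7, EBP, SC5D and DHCR7, which act later in the pathway, had group means that spanned 0.34, 0.37, 0.47, 0.58 and 0.30. For the 10 measured genes of this stretch the median difference was -0.32 with Rego resistance in SNU449, 0.24 in SNU449-Axl-KO, -0.45 with Axl loss in control cells and 0.06 in resistant cells, and 9 of 10 were below 0 in the interaction. At an unadjusted p under 0.05 there were 5 of the 10 with Axl loss in control cells, where 21.5% of all genes had such a p, and 4 in the interaction, where 19.4% had, while there were 3, 2 and 1 with Rego resistance in SNU449 and in SNU449-Axl-KO and with Axl loss in resistant cells.

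NPC1 (ENSG00000141458.13, chromosome 18, 23506184 to 23586506), which exports cholesterol from lysosomes, was the only member called higher with Axl loss. Its values were 345, 254 and 283 in SNU449-ctrl, 224, 253 and 298 in SNU449-Rego, 706, 394 and 617 in SNU449-Axl-KO-ctrl and 395, 851 and 414 in SNU449-Axl-KO-Rego. Every Axl-KO library lay above every unedited library, but replicate 2 of the resistant Axl-KO cells stood far above its group. NPC1 rose by 0.93 (SE 0.28, limma with Benjamini-Hochberg adjusted p = 0.0488) in control cells and by 1.01 (SE 0.28, adjusted p = 0.0443) in resistant cells. Without SNU449-Axl-KO-Rego replicate 2 the difference in resistant cells was 0.54 (limma, Benjamini-Hochberg adjusted p = 0.327). That call was also lost without SNU449-ctrl replicate 2, SNU449-Axl-KO-ctrl replicate 3 or any single library of SNU449-Rego, with differences from 0.88 to 1.16, and when weaker genes, with mean values below 50, were left out, at an unchanged 1.01. The call in control cells was lost without any of 9 libraries, all but SNU449-Rego replicate 3, SNU449-Axl-KO-ctrl replicate 2 and SNU449-Axl-KO-Rego replicate 2, with differences from 0.70 to 1.09, and in 3 other settings. STARD4, a carrier of cholesterol between membranes, had differences from -0.35 to -0.17 in the comparisons between groups.

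**Figure D3:**
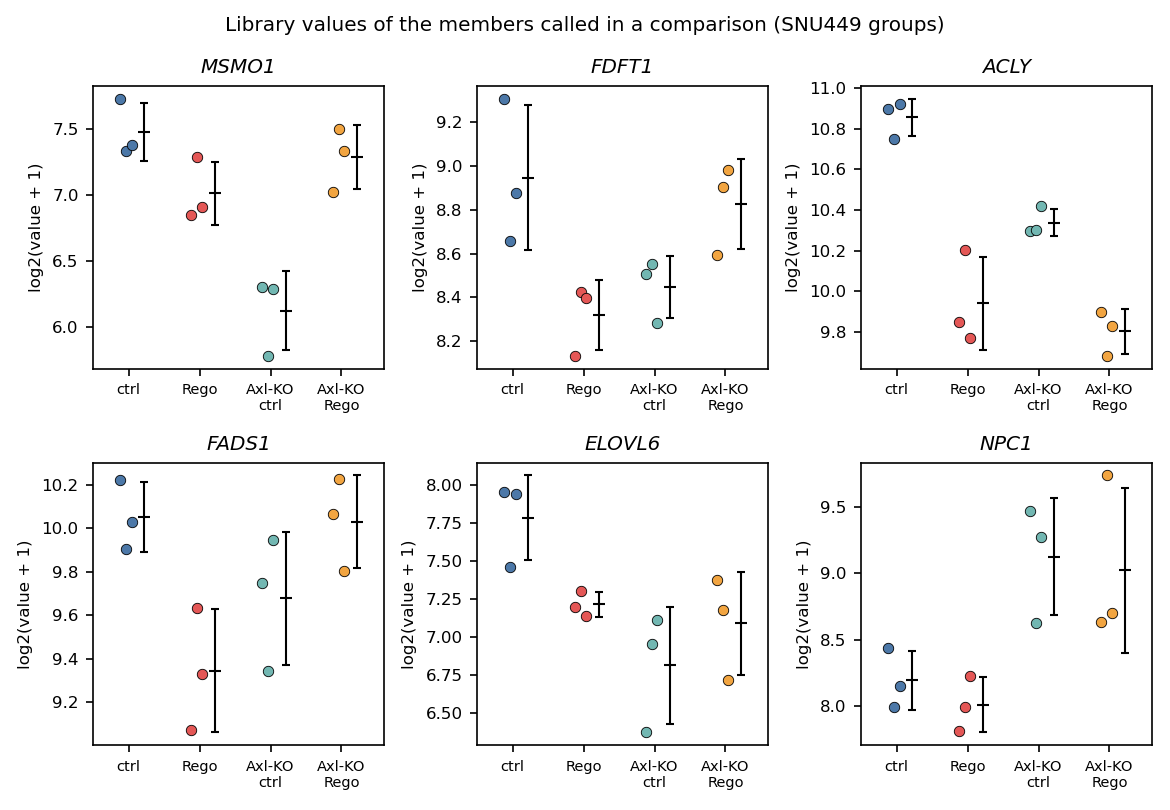
Log2(value + 1) of the 6 members called in at least 1 comparison, with each of the 3 libraries of a group as a point and the group mean with its SD as a bar beside them. MSMO1 is lowest in Axl-KO ctrl, ACLY is highest in ctrl, and in NPC1 a single Axl-KO Rego library lies above the rest of its group.

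All 7 fatty acid genes had differences below 0 with Rego resistance in SNU449, and also with Axl loss in control cells and in the interaction, while 50.1%, 49.3% and 51.1% of all genes were below 0. These comparisons share the SNU449-ctrl libraries, and some of the values lie near 0, such as that of ACACA (-0.03, SE 0.26) and a still smaller one of SCD (SE 0.35) in the interaction. Centring on spike-ins raises every gene with Axl loss in control cells, by as much as the median of all genes given above, and ACACA, at -0.08 before, then lies above 0. With Rego resistance in SNU449, 2 of the 7 were called, against 7.81% of all genes. The larger of these differences was that of ACLY (ENSG00000131473.17, chromosome 17, 41866917 to 41930542), ATP citrate lyase, which supplies cytosolic acetyl-CoA to both pathways. Its values were 1902, 1722 and 1937 in SNU449-ctrl, 922, 1177 and 873 in SNU449-Rego, 1256, 1262 and 1367 in SNU449-Axl-KO-ctrl and 955, 822 and 909 in SNU449-Axl-KO-Rego. The control libraries were higher than the resistant ones in both backgrounds, with no overlap, and SNU449-ctrl stood above every other library. ACLY fell with Rego resistance in SNU449, with a difference of -0.91 (SE 0.18, limma with Benjamini-Hochberg adjusted p = 0.00349). In SNU449-Axl-KO its difference was -0.53 (SE 0.18, adjusted p = 0.105), with Axl loss in control cells -0.52 (SE 0.18, adjusted p = 0.0919), and the interaction was -0.38 (SE 0.25, adjusted p = 0.457), all from the same limma fit with Benjamini-Hochberg adjustment. A difference of ACLY between both backgrounds was therefore not shown.

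FADS1 (ENSG00000149485.19, chromosome 11, 61799627 to 61829318) encodes the delta-5 desaturase of polyunsaturated fatty acids. Its values were 1194, 957 and 1045 in SNU449-ctrl, 537, 794 and 642 in SNU449-Rego, 858, 648 and 984 in SNU449-Axl-KO-ctrl and 1069, 1195 and 892 in SNU449-Axl-KO-Rego. SNU449-Rego lay below SNU449-ctrl without overlap, while the Axl-KO groups overlapped. FADS1 fell with Rego resistance in SNU449, with a difference of -0.71 (SE 0.21, limma with Benjamini-Hochberg adjusted p = 0.0475), and had 0.35 (SE 0.21, adjusted p = 0.402) in SNU449-Axl-KO. The interaction was -1.06 (SE 0.30, adjusted p = 0.0428 from the same limma fit). The fall in SNU449 was no longer called without any single library of SNU449-ctrl or SNU449-Axl-KO-Rego or without replicate 1 or 3 of SNU449-Rego, at -0.81 to -0.53, in the table of this pair of groups, at -0.72, after centring on spike-ins, at -0.66, or with an eBayes step without trend, at -0.71. The interaction was no longer called without any single library of SNU449-ctrl, replicates 1 or 3 of SNU449-Rego, replicates 1 or 2 of SNU449-Axl-KO-ctrl or replicates 1 or 2 of SNU449-Axl-KO-Rego, at -1.16 to -0.84. FADS2, the delta-6 desaturase, lies next to FADS1 on chromosome 11 and had -0.37 (SE 0.23) with Rego resistance in SNU449 and -0.54 (SE 0.33) for the interaction, neither of which was called. The annotated spans of these genes overlap on opposite strands.

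ELOVL6 (ENSG00000170522.10, chromosome 4, 110045846 to 110199199), which lengthens palmitate to stearate, had values of 246, 175 and 244 in SNU449-ctrl, 146, 157 and 140 in SNU449-Rego, 82, 123 and 137 in SNU449-Axl-KO-ctrl and 165, 144 and 104 in SNU449-Axl-KO-Rego. SNU449-ctrl stood above all other libraries. SNU449-Axl-KO-Rego overlapped with SNU449-Rego and with SNU449-Axl-KO-ctrl, and every SNU449-Axl-KO-ctrl library lay below every SNU449-Rego library. ELOVL6 fell with Axl loss in control cells, with a difference of -0.97 (SE 0.23, limma with Benjamini-Hochberg adjusted p = 0.015). This call was lost without replicate 1 or 3 of SNU449-ctrl, at -0.86 and -0.87, without replicate 1 of SNU449-Axl-KO-ctrl, at -0.68, and in the table of this pair of groups, at -0.82. With Rego resistance in SNU449 its difference was -0.57 (SE 0.23, limma, Benjamini-Hochberg adjusted p = 0.161).

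FASN (ENSG00000169710.9, chromosome 17, 82078338 to 82098294), the fatty acid synthase, had values of 1576, 1199 and 2343 in SNU449-ctrl, 1334, 1740 and 976 in SNU449-Rego, 1481, 1225 and 1581 in SNU449-Axl-KO-ctrl and 1328, 1618 and 1144 in SNU449-Axl-KO-Rego. SCD (ENSG00000099194.6, chromosome 10, 100347233 to 100364826), the delta-9 desaturase that makes oleate, had 2530, 1646 and 2431 in SNU449-ctrl, 1823, 2685 and 1616 in SNU449-Rego, 1526, 1329 and 2150 in SNU449-Axl-KO-ctrl and 1506, 1806 and 1255 in SNU449-Axl-KO-Rego. Libraries of each gene differed as much within groups as between them, and all 4 groups overlapped. In the comparisons between groups the differences ran from -0.32 to 0.04 for FASN (SE 0.25) and from -0.40 to -0.12 for SCD (SE 0.25). ACACA, which makes malonyl-CoA, was the most even member, with group means that spanned 0.13 on the log2 scale. LPIN1, a phosphatidate phosphatase on the way to triglycerides, had -0.46 (SE 0.20) with Axl loss in control cells and -0.28 (SE 0.20) with Rego resistance in SNU449, neither of which was called.

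**Figure D4:**
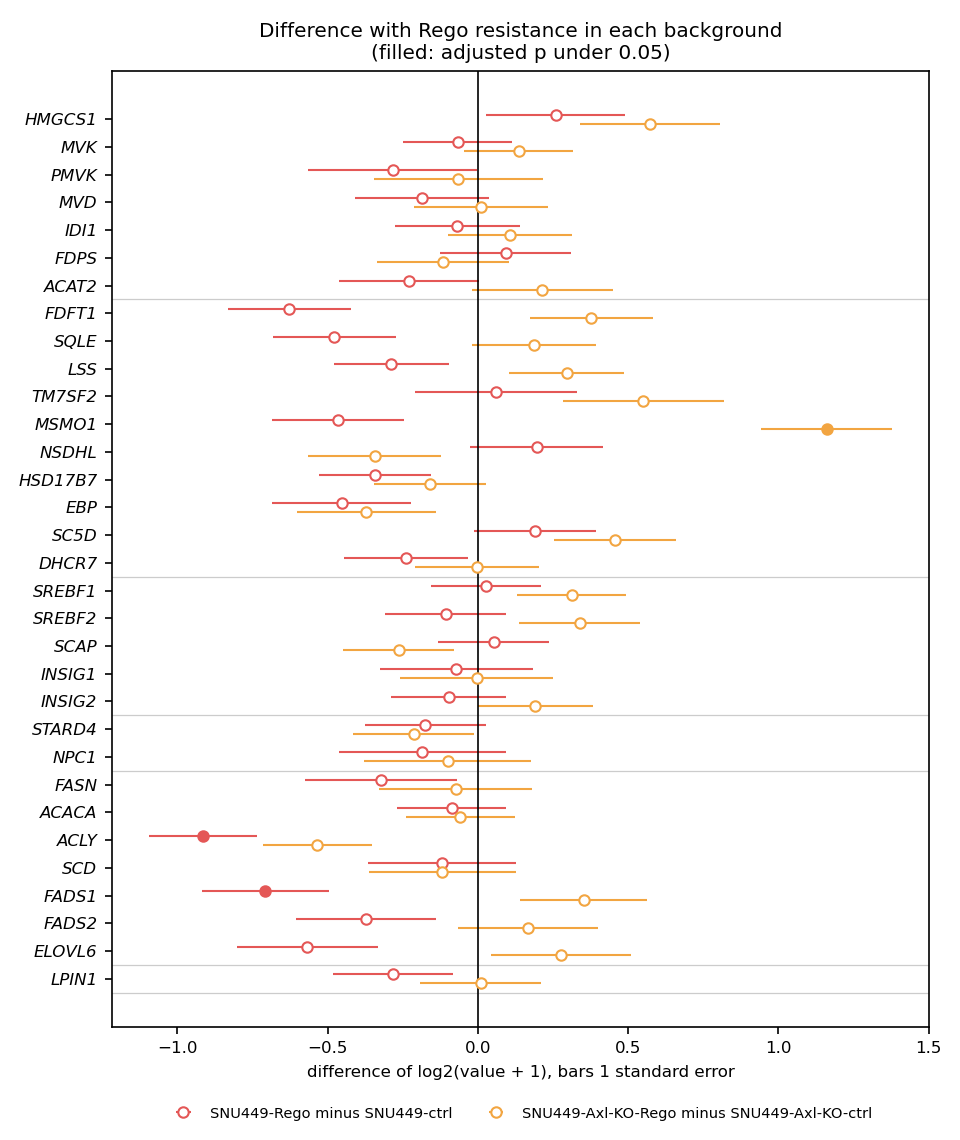
Difference of log2(value + 1) between resistant and control cells for each of the 32 members, in SNU449 (red) and in SNU449-Axl-KO (orange), with bars of 1 SE and filled points where the limma test with Benjamini-Hochberg adjustment called the gene. ACLY and FADS1 are filled in SNU449 at -0.91 and -0.71, and MSMO1 is filled in SNU449-Axl-KO at 1.16.

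Promoters of the members were compared for 4 short motifs, since SREBP acts together with NF-Y and Sp1 at many of these genes. RefSeq promoters on GRCh38.p14, from 250 bases before to 50 bases after the start, were matched by symbol for 29 of the 33 members. FDFT1, SQLE, FASN and ACAT2 have no entry. On either strand, the NF-Y box CCAAT was found in 20 of the 29 members (69%) and in 39.7% of 27305 genes with a promoter. The GC box GGGCGG was found in 28 members (96.6%) and in 48.3% of all, the E-box CACGTG in 4 (13.8%) and in 8.77%, and TCACNCCAC, a form of the sterol regulatory element, in 1 (3.45%) and in 1.39%. That member was SREBF2. The 27305 genes were not limited to genes measured here, so the members were set beside an unlike group. The absence of a motif says only that these letters are not in this window. Of the 5 called members with a promoter, MSMO1 and ACLY held CCAAT. Since no called member held TCACNCCAC, the promoters shown were chosen after the values were seen, as those of the called members with CCAAT and of the 1 member with TCACNCCAC. They are the bases before the RefSeq start, 5′ to 3′ along the gene, cut short for MSMO1 and SREBF2 where the gene coordinates given above begin, with CCAAT or its reverse complement in capitals for MSMO1 (chr4:165327419-165327666, plus strand) and ACLY (chr17:41919023-41919272, minus strand) and the match to TCACNCCAC in capitals for SREBF2 (chr22:41832855-41833078, plus strand). The stretches of MSMO1 and ACLY overlap no annotated exon, and that of SREBF2 lies within an exon of the noncoding antisense gene SREBF2-AS1.
MSMO1: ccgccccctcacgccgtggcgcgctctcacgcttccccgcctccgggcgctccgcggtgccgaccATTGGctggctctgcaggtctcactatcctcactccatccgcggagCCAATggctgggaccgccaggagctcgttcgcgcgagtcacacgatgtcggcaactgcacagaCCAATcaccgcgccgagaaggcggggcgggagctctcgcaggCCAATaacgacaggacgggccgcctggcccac
ACLY: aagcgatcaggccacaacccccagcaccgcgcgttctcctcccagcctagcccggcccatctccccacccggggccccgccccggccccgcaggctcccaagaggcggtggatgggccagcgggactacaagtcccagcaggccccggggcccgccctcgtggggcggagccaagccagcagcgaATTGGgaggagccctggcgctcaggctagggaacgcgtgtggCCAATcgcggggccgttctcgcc
SREBF2: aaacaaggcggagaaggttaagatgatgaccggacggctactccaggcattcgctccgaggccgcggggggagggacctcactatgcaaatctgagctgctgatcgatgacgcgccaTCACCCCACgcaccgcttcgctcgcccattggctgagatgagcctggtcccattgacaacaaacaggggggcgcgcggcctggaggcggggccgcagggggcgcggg
Distances are counted from the RefSeq start, which lies 2 bases inside the gene coordinates given above for MSMO1, 26 bases inside for SREBF2 and 11520 bases inside for ACLY, whose coordinates include a more distant start. MSMO1, the member with the largest difference, held 4 such boxes, which begin 185, 139, 76 and 34 bases before that start. ACLY held 2, at 65 and 23 bases, and the match of SREBF2 begins 133 bases before. A match describes the letters and not a bound site.

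Other genes of sterol metabolism were followed in lists beside the members. In the list of sterol synthesis and SREBP processing, UBE2G2, a ubiquitin-conjugating enzyme, rose by 0.87 (SE 0.24) with Axl loss in control cells and by 0.81 (SE 0.24) with Rego resistance in SNU449, and GGPS1, which makes geranylgeranyl diphosphate, rose by 0.65 (SE 0.18) with Rego resistance in SNU449. Leaving out a single library ended the call of UBE2G2 for 4 of 12 libraries with Axl loss, at 0.61 to 0.97, and for 7 with Rego resistance, at 0.68 to 0.97, and that of GGPS1 for 7, at 0.52 to 0.72.

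Among 21 measured genes of sterol uptake, trafficking and efflux, 1 rose and 3 fell with Rego resistance in SNU449, where 7.81% of all genes were called, and 1 fell with Axl loss in control cells, where 7.45% were. LRP8, a receptor of the LDL receptor family that binds apolipoprotein E, had values of 263, 398 and 281 in SNU449-ctrl, 152, 123 and 217 in SNU449-Rego, 166, 135 and 129 in SNU449-Axl-KO-ctrl and 215, 215 and 181 in SNU449-Axl-KO-Rego. SNU449-ctrl was the highest group, and within Axl-KO cells the resistant libraries were the higher ones. LRP8 fell by 0.95 (SE 0.23, limma with Benjamini-Hochberg adjusted p = 0.0145) with Rego resistance in SNU449 and fell by 1.11 (SE 0.23, adjusted p = 0.00541) with Axl loss in control cells, and its interaction was -1.46 (SE 0.32, adjusted p = 0.0112). Without SNU449-ctrl replicate 2 the first was -0.70 and the second -0.87, and neither was called. The first was also not called without replicate 1 or 2 of SNU449-Rego, at -0.90 and -0.70, or in the table of this pair of groups, at -0.79. GRAMD1A, which moves cholesterol from the plasma membrane to the endoplasmic reticulum, rose by 1.01 (SE 0.24) with Rego resistance in SNU449, and ABCA1, the cholesterol efflux pump, fell by 0.89 (SE 0.27). STARD3NL fell by 0.84 (SE 0.19) in the same comparison. Among single libraries left out, its call was lost only without SNU449-Rego replicate 3, at -0.71. Of 12 genes of the isoprenoid branch, COQ2 of coenzyme Q synthesis was called, higher by 0.66 (SE 0.18) with Rego resistance in SNU449-Axl-KO and lower, at -0.72 (SE 0.18), with Axl loss in control cells, where 4.35% and 7.45% of all genes were called. Leaving out a single library ended the call of GRAMD1A for 2 of 12 libraries, at 0.75 and 0.79, that of ABCA1 for 8, at -0.89 to -0.68, and those of COQ2 for 8, at 0.59 to 0.77, and for 3, at -0.67 to -0.66.

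Lipid droplet genes held the largest difference of all the lists. PLIN2 (ENSG00000147872.10), the protein coat of lipid droplets, had values of 2298, 2747 and 4808 in SNU449-ctrl, 405, 315 and 310 in SNU449-Rego, 2229, 1207 and 1969 in SNU449-Axl-KO-ctrl and 1537, 3055 and 1087 in SNU449-Axl-KO-Rego. SNU449-Rego lay far below every library of the other groups. PLIN2 fell with Rego resistance in SNU449, with a difference of -3.19 (SE 0.33, limma with Benjamini-Hochberg adjusted p = 7e-06), and its difference in SNU449-Axl-KO was -0.02 (SE 0.33, adjusted p = 0.987 from the same fit). The interaction was -3.17 (SE 0.47, limma with Benjamini-Hochberg adjusted p = 0.000558), and with Axl loss PLIN2 rose in resistant cells by 2.33 (SE 0.33). The solved group means of normalized counts were 3357 in SNU449-ctrl, 92.7 in SNU449-Rego, 1929 in SNU449-Axl-KO-ctrl and 2209 in SNU449-Axl-KO-Rego. These calls of PLIN2 were kept in every setting tried. PLIN3, a second droplet protein, had values of 1220, 1098 and 1183 in SNU449-ctrl, 1800, 2104 and 1270 in SNU449-Rego, 1977, 2249 and 3181 in SNU449-Axl-KO-ctrl and 1452, 1212 and 1319 in SNU449-Axl-KO-Rego. SNU449-ctrl was the lowest group and SNU449-Axl-KO-ctrl held the highest library. PLIN3 rose with Axl loss in control cells by 1.05 (SE 0.22) and fell by 0.87 (SE 0.22) with Rego resistance in SNU449-Axl-KO. MGLL, which splits monoglycerides, rose with Rego resistance in SNU449 by 1.04 (SE 0.18) and with Axl loss in control cells by 0.77 (SE 0.18). Leaving out a single library ended the fall of PLIN3 for 5 of 12 libraries, at -0.96 to -0.61, and the second rise of MGLL for 2, both at 0.66. Of the 12 measured genes of this list no other was called in the comparisons between groups. Among all genes 7.81% and 4.35% were called with Rego resistance in SNU449 and in SNU449-Axl-KO. With Axl loss the shares were 7.45% in control cells and 4.37% in resistant cells.

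Among 25 measured genes of fatty acid supply, elongation and activation, the fatty acid carrier FABP5 had values of 103, 158 and 108 in SNU449-ctrl, 49, 44 and 50 in SNU449-Rego, 176, 181 and 201 in SNU449-Axl-KO-ctrl and 133, 94 and 111 in SNU449-Axl-KO-Rego. SNU449-Rego was the lowest and SNU449-Axl-KO-ctrl the highest group. FABP5 fell by 1.32 (SE 0.21, limma with Benjamini-Hochberg adjusted p = 0.000544) with Rego resistance in SNU449 and rose with Axl loss in resistant cells by 1.21 (SE 0.21, adjusted p = 0.00227). On the count scale, which carries no error and no test, the solved group means of FABP5 were 100.8 in SNU449-ctrl, 8.57 in SNU449-Rego, 174 in SNU449-Axl-KO-ctrl and 103 in SNU449-Axl-KO-Rego. Relative to the shift of all genes these log2 differences were -3.39 and 3.22, larger than on the stabilized scale. ELOVL2, an elongase of polyunsaturated fatty acids, had values of 93, 96 and 95 in SNU449-ctrl, 100, 99 and 94 in SNU449-Rego, 207, 269 and 222 in SNU449-Axl-KO-ctrl and 101, 77 and 98 in SNU449-Axl-KO-Rego. SNU449-Axl-KO-ctrl stood apart from 3 overlapping groups. ELOVL2 rose with Axl loss in control cells by 1.28 (SE 0.19, limma with Benjamini-Hochberg adjusted p = 0.000356) and fell by 1.33 (SE 0.19, adjusted p = 0.000385) with Rego resistance in SNU449-Axl-KO. The calls of FABP5 and ELOVL2 were kept in every setting tried. TECR of the elongation cycle rose by 0.70 (SE 0.19) with Rego resistance in SNU449, ACSL4, which activates polyunsaturated fatty acids, rose by 0.83 (SE 0.23) with Axl loss in control cells, and SCD5, a second delta-9 desaturase, fell by 0.80 (SE 0.20) with Axl loss in resistant cells. TECR was weakly expressed, at solved group means of 13.6 and 39.4 normalized counts in SNU449-ctrl and SNU449-Rego. For each of TECR, ACSL4 and SCD5, leaving out any of 5 of the 12 libraries ended the call, at 0.59 to 0.77, 0.63 to 0.83 and -0.90 to -0.62. The shares of all genes called in these comparisons are those given for the lipid droplet genes.

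**Figure D5:**
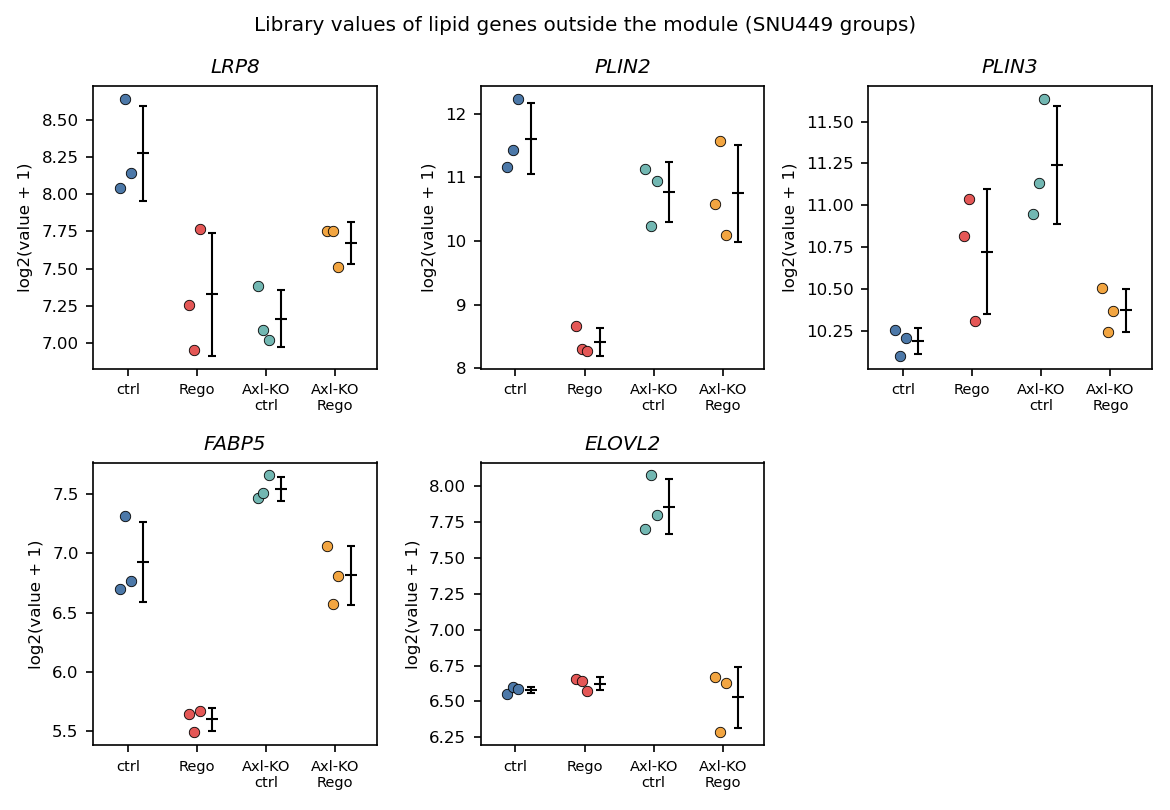
Log2(value + 1) of 5 lipid genes outside the list of members, with each of the 3 libraries of a group as a point and the group mean with its SD as a bar beside them. PLIN2 and FABP5 are lowest in Rego, LRP8 is highest in ctrl, and ELOVL2 is highest in Axl-KO ctrl.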

How the data were processed

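Total RNA of 12 libraries in 4 groups of 3 was sequenced as QuantSeq 3′ mRNA libraries. Per the submitters' processing notes and methods, reads were trimmed with cutadapt 4.0, aligned with STAR 2.5.3a to GRCh38 with GENCODE 40 and spike-in sequences and counted per gene, and weakly expressed genes were removed. The 8 deposited tables, 6 for pairs of groups and 2 over all libraries, hold 1 value per library, which was read as a score, a rounded power of 2 whose exponent is the authors' variance-stabilized level, corrected for the preparation date. The signal in these tables is the authors' mean normalized count over the libraries of a table. Columns with the fold changes, errors and p-values of the authors' own DESeq2 comparisons were not used. The mean normalized counts of the table fitted summed to 4510000, and the depth per library is unknown.

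A 4-group model with the replicate number as a block (6 residual degrees of freedom) was fitted to log2(value + 1) over 15601 genes, spike-ins left out, with limma 3.58.1 (lmFit, eBayes with trend) in R 4.3.3, and p-values were adjusted by Benjamini-Hochberg. The block was kept because the study had the preparation date in its design and its removal follows the replicate number. Means of libraries of one number deviated by a median of 0.00126 in that table, against 0.122 for the remaining deviation. Group means of normalized counts were solved by least squares from 7 tables, with a median relative error of 0.312%, and medians over all genes on that scale used 10344 genes with a mean count of at least 20. Gene coordinates are those of the deposited table on GRCh38, and exons near the promoters shown are from GENCODE 44. Members called in any comparison, and SREBF1, SREBF2, INSIG1, HMGCS1, FASN and SCD for their roles, were described by library. From each further list at most 3 called genes per comparison were named, by size, and 1 of these genes is not reported here. ELOVL7 and the fall of STARD3NL with Rego resistance in SNU449, which this rule left out, and the calls of markers were added after the values were seen. The members and lists were chosen with earlier results of these data known. Figures were drawn with matplotlib 3.10.9 in Python 3.11.15. The alternatives were no block, the other tables, pseudocounts of 0 and 10 in place of 1, a mean value of at least 50, upper-quartile rescaling, centring on spike-ins, eBayes without trend and leaving out each library.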

Additional observations from a re-analysis of the deposited data

Results flagged for a closer look

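The Rego difference was not the same in SNU449 and SNU449-Axl-KO for 17 of 168 measured members, genes of the further lists and cell type markers (10.1%), by the interaction term of limma at a Benjamini-Hochberg adjusted p under 0.05. Of all genes 5.87% were called in this term. The members and lists were chosen with earlier results of these data known, so setting these shares side by side is no test. Among the 32 members 3 were called. A negative value means a lower Rego difference in SNU449. Among the members, the value was -1.63 (SE 0.309) for MSMO1, -1.06 (SE 0.299) for FADS1 and -1.01 (SE 0.29) for FDFT1. Of these the call of MSMO1 was kept without any single library, whereas those of FADS1 and FDFT1 were lost without any of 9 and 11 of the 12 libraries.

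Among the genes of sterol metabolism outside the list, LRP8 had -1.46 (SE 0.324), COQ2 had -1.07 (SE 0.256), STARD3NL, a late endosomal protein, had -0.936 (SE 0.268), and UBE2G2 had 1.40 (SE 0.341). PLIN2 had the largest value among the lipid genes, -3.17 (SE 0.471), while the droplet gene PLIN3 had 1.40 (SE 0.309) and MGLL 0.954 (SE 0.261). In the elongation of fatty acids the values were 1.37 (SE 0.267) for ELOVL2, 1.19 (SE 0.333) for HACD2 and 0.949 (SE 0.267) for TECR, while the elongase ELOVL7 had -0.88 (SE 0.253). PPARGC1A, a coactivator of oxidative metabolism, had -1.02 (SE 0.27), with values of 52, 43 and 52 in SNU449-ctrl and 26, 31 and 27 in SNU449-Rego. Its solved group means were 20, 2.10, 5.64 and 12.1 normalized counts in SNU449-ctrl, SNU449-Rego, SNU449-Axl-KO-ctrl and SNU449-Axl-KO-Rego. The call of PPARGC1A thus rests on few counts. The calls of LRP8, PLIN2, PLIN3 and ELOVL2 were kept without any single library. The others were lost without any of 2 libraries for COQ2, 4 for UBE2G2, 7 for HACD2, 8 for MGLL and for PPARGC1A, 10 for TECR, 11 for STARD3NL and all 12 for ELOVL7.

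The marker FN1 had -4.71 (SE 0.516), the largest value of all 17, and FGB had -2.38 (SE 0.54). The call of FN1 was kept without any single library, and that of FGB was lost without SNU449-Axl-KO-Rego replicate 2, at -1.85.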

How the results depend on the processing

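No difference called for a member or for a further gene named changed its sign in any alternative. For the members, 151 of 207 alternative fits of 10 differences stayed on the same side of the threshold and 56 lost the call. For 43 differences of the further genes, 681 of 890 stayed and 209 lost the call. Losses given beside these genes mostly cover left-out libraries only. Other settings ended calls as well, such as that of CCNB1 with Rego resistance in SNU449 in 5 of 9. ACLY with Rego resistance in SNU449 and MSMO1 with Axl loss in control cells and in the interaction were called in all of them.

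The counts below follow the order Rego resistance in SNU449, Rego resistance in SNU449-Axl-KO, Axl loss in control cells, Axl loss in resistant cells, interaction. Without the replicate block 2175, 1552, 2182, 1503 and 1826 genes were called in place of 1219, 678, 1163, 682 and 916, and 3, 2, 7, 3 and 3 members in place of 2, 1, 3, 1 and 3. The removal of the preparation effect had used degrees of freedom that a fit without the block counts as free. The tables for pairs of groups, which give no interaction, called 603, 818, 603 and 1160 genes and 1, 1, 2 and 2 members. Centring on spike-ins called 1799 genes and 4 members with Axl loss in resistant cells and 1 member with Rego resistance in SNU449, and the share of higher genes among those called moved from 55.2% to 61.7%, from 58.4% to 84.2%, from 54% to 84.5%, from 55.9% to 96.2% and from 50.3% to 36.6% in the order above. An eBayes step without trend called 1 member with Rego resistance in SNU449, and a mean value of at least 50 left 0 with Axl loss in resistant cells, since NPC1 had an adjusted p of 0.0546 from limma there. Leaving out 1 library gave 740 to 1299, 205 to 891, 540 to 1275, 219 to 826 and 523 to 922 genes, and 1 to 2, 0 to 1, 1 to 3, 0 to 1 and 1 to 2 members, with 2 libraries left in a group that were taken to vary like the others. The lowest counts of genes came without SNU449-ctrl replicate 2, SNU449-Axl-KO-Rego replicate 2, SNU449-Axl-KO-ctrl replicate 2, SNU449-Axl-KO-Rego replicate 2 and SNU449-Axl-KO-Rego replicate 2. PPARGC1A was not tested at a mean value of at least 50. The cause of these changes was not tested.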

Other observations

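Of 21 measured genes of fatty acid oxidation, 2 were called with Rego resistance in SNU449, where 7.81% of all genes were called. PPARA, a receptor that drives oxidation genes in liver, rose by 0.74 (SE 0.22), and PPARGC1A fell by 0.78 (SE 0.19). Both were weakly expressed. In SNU449-ctrl and SNU449-Rego the solved group means were 10.5 and 33.2 normalized counts for PPARA and 20 and 2.10 for PPARGC1A. HADH, an enzyme of the oxidation cycle, had values of 176, 149 and 183 in SNU449-ctrl and 82, 130 and 101 in SNU449-Axl-KO-ctrl, with no overlap, and fell by 0.71 (SE 0.20) with Axl loss in control cells. The median of the 21 genes was -0.01 with Rego resistance in SNU449 and 0.18 in SNU449-Axl-KO. Leaving out a single library ended these calls for 10, 4 and 6 of the 12 libraries, at 0.55 to 0.88, -0.75 to -0.71 and -0.71 to -0.50. PPARA was also not called in 6 of 9 other settings, PPARGC1A in 1 of 8 and HADH in 2 of 9.

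Proliferation genes were below 0 with Rego resistance in both backgrounds, for 13 of 16 genes each, against 50.1% and 49% of all genes. Their medians were -0.36 in SNU449 and -0.37 in SNU449-Axl-KO, while the medians of all genes lay between -0.01 and 0.01. Of the 16, 1 rose and 2 fell in SNU449 and 1 fell in SNU449-Axl-KO, against 7.81% and 4.35% of all genes called. With Axl loss in control cells 1 rose, against 7.45% called. In SNU449, MCM6 fell by 0.90 (SE 0.20) and CCNB1 fell by 0.72 (SE 0.22), while CCND1 rose by 1.24 (SE 0.36). In SNU449-Axl-KO, BUB1 fell by 0.77 (SE 0.19). CCND1 also rose with Axl loss in control cells, by 1.30 (SE 0.36), and its SNU449-ctrl libraries, at 209, 479 and 173, lay below all libraries of SNU449-Rego, at 632, 546 and 664. Leaving out a single library ended the call of MCM6 for 2 of 12 libraries, at -0.83 and -0.73, of CCNB1 for 9, at -0.86 to -0.49, of BUB1 for 5, at -0.83 to -0.66, and of CCND1 for 7 and 5, at 0.85 to 1.35 and 0.91 to 1.45. The part of proliferation in the differences of the lipid genes was not tested.

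FN1, a mesenchymal marker, was called in all 5 comparisons, with -2.24 and 2.47 for Rego resistance in SNU449 and in SNU449-Axl-KO, -2.25 and 2.46 for Axl loss in control and in resistant cells, and -4.71 for the interaction. All 5 calls of FN1 were kept without any single library. Its part in the differences of the lipid genes was not tested.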
